A study of Sus scrofa with 8 samples.

Results

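The genes described here form the insulin-like growth factor (IGF) axis: the ligands IGF1 and IGF2, their receptors IGF1R and IGF2R, and the binding proteins IGFBP2 to IGFBP7. Members were taken by name, as the spots whose single gene symbol in the platform annotation is one of these 10 symbols. A spot was found for 8 of the 10 genes, on 16 of the 9984 spots of the array, and the array annotation names 2922 genes in all. IGF1 and IGF1R had no spot with that symbol and were not analysed here. Each of the 8 genes had a pair of neighbouring spots, called spot A and spot B below.

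The samples were skeletal muscle RNA of pigs (Sus scrofa) on a high energy diet and of pigs on a low energy diet. The sources used here do not name strain, age, muscle, length of feeding or composition of the diets. Whether a sample number means 1 animal or a pool is not stated in the labels either. Each of 8 arrays carried a high energy and a low energy sample in different dyes. By their titles, the arrays form 4 couples: high energy sample 40 with low energy sample 49 (couple 1), 41 with 61 (couple 2), 40 again with 142 (couple 3), and ae with be (couple 4), letters that the labels do not expand. Each couple was hybridised with the high energy sample in dye 5 and again with it in dye 3. The swapped arrays hold the same pair of RNAs and were averaged, so n is at most 4 couples, of which couples 1 and 3 share a sample. What p-values measure is therefore spread among couples, part of which may be technical.

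IGF1 and IGF2 are secreted growth factors that drive muscle growth and protein synthesis through the tyrosine kinase receptor IGF1R, which signals by way of PI3 kinase and AKT and by way of RAS and MAP kinases. IGF2R, which also carries lysosomal enzymes marked with mannose phosphate, takes up IGF2 for breakdown and has no kinase of its own. The binding proteins hold the ligands in blood and tissue and either keep them from the receptor or release them to it. In muscle, feeding and growth hormone are known to act on several of these genes.

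No gene of the axis passed the test, and neither did any other feature of the array. Of the 8 genes, 7 were measured in both dye orientations in at least 3 couples and were tested. Each deposited value is a log2 ratio between both channels, and its direction is not stated. It is read here as likely high over low energy: channel 1 is labelled low energy on every array, and the design text makes low energy the reference. Beside the mean ratio of each gene of the axis stands its turned value, for which the dye 3 arrays changed sign before averaging. The turned value would be the diet ratio if the files held one dye over the other, and is the dye effect otherwise. In limma's test, 0 of 5025 features (0%) had an adjusted p under 0.05, for the ratio or for the turned value. The adjusted p was 0.9965 for every tested gene of the axis, and 0.9982 for every turned value. Without adjustment, 190 features (3.78%) had a p under 0.05, or 133 turned (2.65%), and 0 of the 7 genes of the axis did in either case. The annotation of the array is human, and pig RNA can bind human probes unequally.

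Of the 7 genes, 3 lay above 0 and 4 below. Their median log2 ratio was -0.071, against -0.012 over all tested features, and the median size of the ratio was 0.11, against 0.090 over all tested features. The median standard error was 0.11 for the axis and 0.13 for all. The arrays held values for 77.6% to 94.4% of all spots and for 118 of the 128 possible values of the axis. The lost values were unevenly placed: the array of couple 1 with high energy in dye 5 had 11 of 16, while the arrays of couples 1, 2 and 3 with high energy in dye 3 and the array of couple 4 with high energy in dye 5 had all 16.

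**Figure D1:**
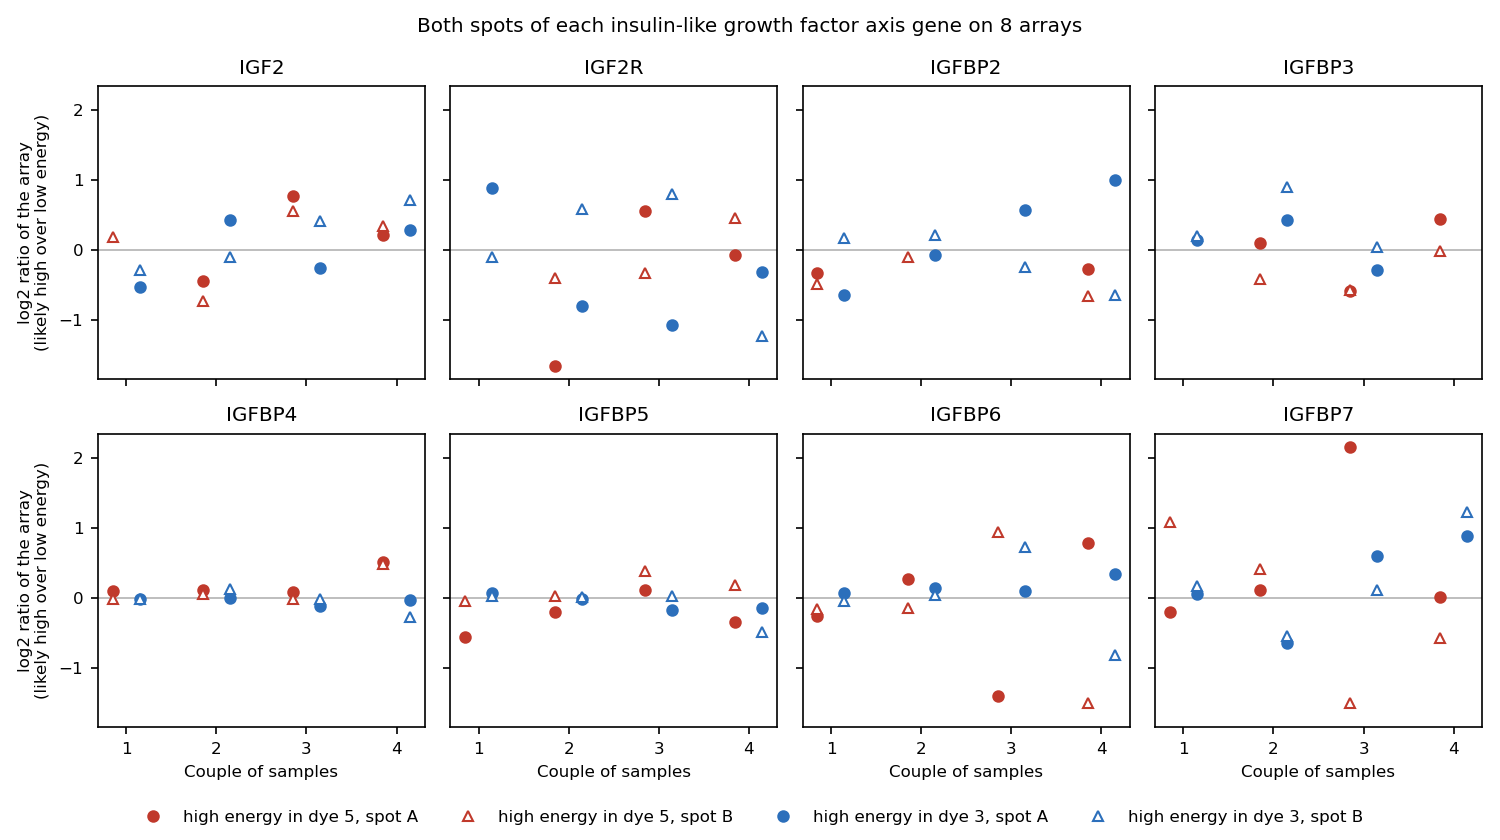
Log2 ratio (vertical axis, likely high over low energy, centred on the array median) of both spots of the 8 genes on the arrays of couples 1 to 4 (horizontal axis); red marks high energy in dye 5, blue high energy in dye 3, filled circles spot A and open triangles spot B. IGFBP4 stays between -0.28 and 0.51, whereas IGFBP7 runs from -1.51 to 2.16 and the spots of IGF2R lie far apart on most arrays.

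IGF2, the ligand with a spot on this array, had ratios that split by couple. Its log2 ratios with high energy in dye 5 were 0.18, -0.58, 0.66 and 0.28 in couples 1 to 4. On the dye 3 arrays, those with high energy in dye 3, they were -0.40, 0.17, 0.075 and 0.50. Both arrays of couples 3 and 4 were above 0, and the arrays of couples 1 and 2 had opposite signs within each couple. The couple means were -0.11, -0.21, 0.37 and 0.39. The limma mean was 0.11 ± 0.17 (SE, 4 couples, turned -0.028), with a 95% interval from -0.32 to 0.53. That interval spans 0.80-fold to 1.44-fold, and the mean was 0.18 without couple 1, 0.24 without couple 2, 0.024 without couple 3 and -0.016 without couple 4.

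IGF2R, the receptor that removes IGF2, had the largest ratio of the axis by size, and its spots differed in it. The dye 5 arrays gave log2 ratios of -1.03, 0.11 and 0.19 in couples 2 to 4, with no value in couple 1. The dye 3 arrays gave 0.39, -0.11, -0.13 and -0.77 in couples 1 to 4. Both signs occurred in both orientations, and the swapped arrays had opposite signs in couples 3 and 4. The means of couples 2 to 4 were -0.57, -0.0099 and -0.29, all below 0. Of the 1385 features measured in 3 couples, 25.1% had 1 sign in all 3. The limma mean was -0.29 ± 0.14 (SE, 3 couples, turned 0.050), with a 95% interval from -0.67 to 0.086, or 0.63-fold to 1.06-fold. Taken on its own, spot A gave -0.56 and spot B -0.020. With couple 1 counted by its single array the mean was -0.18. With 2 couples left, it was -0.15 without couple 2, -0.43 without couple 3 and -0.29 without couple 4.

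The binding proteins with high affinity for the ligands showed no common direction. IGFBP2, a binding protein made by many tissues and known in blood to follow fasting and feeding, had log2 ratios of -0.41, -0.11 and -0.47 with high energy in dye 5 in couples 1, 2 and 4. On the dye 3 arrays it had -0.23, 0.070, 0.16 and 0.18 in couples 1 to 4. Every measured array of the first orientation was below 0, and 3 of 4 arrays of the other were above. Its spots had opposite signs on 4 of the 6 arrays with both, and these were the dye 3 arrays. In couple 4 they were at 1.01 and -0.65 there. The dye 5 value of couple 2 came from spot B only. The means of couples 1, 2 and 4 were -0.32, -0.018 and -0.15, and the limma mean was -0.16 ± 0.11 (SE, 3 couples, turned -0.17), with a 95% interval from -0.45 to 0.13. The turned value was as large as the ratio and below 0 in the same 3 couples. Turned values kept 1 sign, above or below 0, in 24.6% of features with 3 couples. With 1 orientation per couple taken as enough, couple 3 entered and the mean was -0.081. With 2 couples left, it was -0.082 without couple 1, -0.23 without couple 2 and -0.17 without couple 4.

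IGFBP3, the main carrier of the ligands in blood, was measured in both orientations in couples 2 and 3 only and was not tested. Its log2 ratios were -0.15, -0.58 and 0.21 on the dye 5 arrays of couples 2 to 4. They were 0.18, 0.67 and -0.12 on the dye 3 arrays of couples 1 to 3. The array values were of both signs in both orientations. The means of couples 2 and 3 were 0.26 and -0.35, on opposite sides of 0, with a plain mean of -0.047. Turned, couples 2 and 3 were at -0.41 and -0.23, both below 0, with a plain mean of -0.32. That was the largest turned value of the axis by size, and it was not tested either.

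IGFBP4, which inhibits the ligands until a protease cuts it, had the smallest standard error of the axis. On the dye 5 arrays its log2 ratios were 0.033, 0.079, 0.034 and 0.50 in couples 1 to 4. The dye 3 arrays had -0.021, 0.060, -0.070 and -0.16. The 6 arrays of couples 1 to 3 lay within 0.079 of 0, and the arrays of couple 4 stood farthest from it, with opposite signs. The couple means were 0.0062, 0.069, -0.018 and 0.17. The limma mean was 0.069 ± 0.085 (SE, 4 couples, turned 0.12), with a 95% interval from -0.14 to 0.28, or 0.91-fold to 1.22-fold. Of the tested features 7.46% had a smaller standard error. The turned value was above 0 in all 4 couples, as 1 sign was in 14.7% of the 3640 features measured in 4 couples, and without couple 4 the mean was 0.026.

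IGFBP5, a binding protein that muscle cells make as they differentiate, had log2 ratios of -0.31, -0.094, 0.25 and -0.086 with high energy in dye 5 in couples 1 to 4. Its dye 3 arrays had 0.046, -0.0043, -0.073 and -0.32. Of the 8 arrays, 6 were below 0. The couple means were -0.13, -0.049, 0.086 and -0.20, and the limma mean was -0.084 ± 0.099 (SE, 4 couples, turned 0.018), with a 95% interval from -0.33 to 0.16. Spot A alone gave -0.16 and spot B alone -0.0063. The mean was -0.055 without couple 1, -0.13 without couple 3 and -0.034 without couple 4.

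IGFBP6, which prefers IGF2 to IGF1, had log2 ratios of -0.21, 0.058, -0.23 and -0.37 with high energy in dye 5 in couples 1 to 4. Those with high energy in dye 3 had 0.0095, 0.092, 0.42 and -0.24. Both arrays of couple 2 were above 0 and both of couple 4 below, and the swapped arrays of couples 1 and 3 had opposite signs. The spots disagreed in couple 4: spot A was at 0.78 (dye 5) and 0.33 (dye 3), and spot B at -1.51 and -0.82. The couple means were -0.10, 0.075, 0.092 and -0.30, and the limma mean was -0.071 ± 0.11 (SE, 4 couples, turned -0.11), with a 95% interval from -0.35 to 0.21. The turned value was below 0 in all 4 couples. Spot A alone gave 0.077 ± 0.23 and spot B alone -0.22 ± 0.36, each with a larger standard error than the average of both. The mean was -0.046 without couple 1, -0.13 without couple 2, -0.11 without couple 3 and 0.029 without couple 4.

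IGFBP7, a relative of low affinity for the ligands that is made in vessel walls, had the largest ratio above 0. Its log2 ratios were 0.44, 0.26, 0.32 and -0.28 on the dye 5 arrays of couples 1 to 4. The swapped arrays had 0.11, -0.60, 0.35 and 1.05. Both arrays of couples 1 and 3 were above 0, and the arrays of couples 2 and 4 had opposite signs. The couple means were 0.28, -0.17, 0.34 and 0.39, and the limma mean was 0.19 ± 0.13 (SE, 4 couples, turned -0.041), with a 95% interval from -0.14 to 0.51, or 0.91-fold to 1.42-fold. Taken on its own, spot A gave 0.31 ± 0.39 and spot B 0.060 ± 0.33 (SE, 4 couples). Each spot thus had a larger standard error than the average of both. Without couple 2 the mean was 0.34 (adjusted p = 0.9994 in limma's test), and without couple 4 it was 0.10. With dim values left out, in the sense given below, it was -0.097 in 3 couples.

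**Figure D2:**
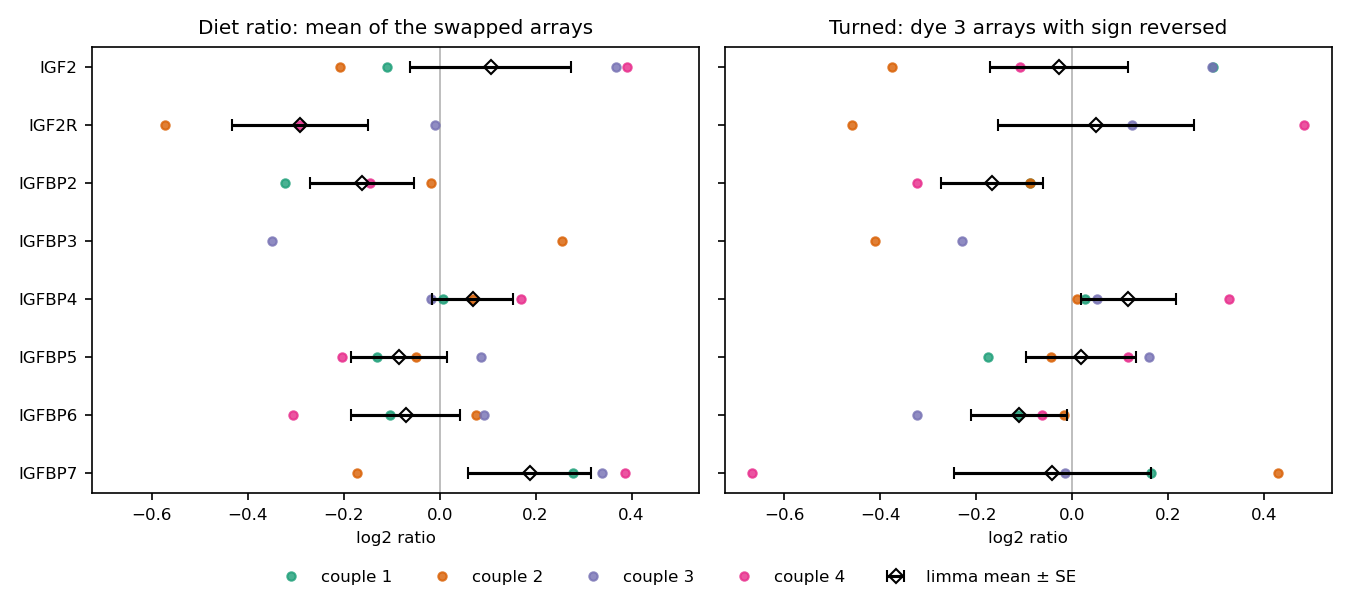
Means of the swapped arrays by couple (coloured points) and limma means ± SE (open diamonds) for the diet ratio (left) and the turned value (right), as log2 ratios on the horizontal axis. IGF2R and IGFBP2 are below 0 in all 3 of their couples on the left, and on the right the points of IGFBP4 are all above 0 and those of IGFBP6 all below.

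Across the axis, no gene measured in 4 couples kept 1 sign in all of them: 0 of 5, against 604 of 3640 features (16.6%). Of the turned values 2 of 5 did, those of IGFBP4 and IGFBP6, against 536 of 3640 features (14.7%). No gene kept 1 sign on all 8 arrays either, 0 of 5 against 82 of 3640 (2.25%). In 16 of the 28 couples of a gene, the swapped arrays had opposite signs, where over all tested features 49.5% of couples did. Swapped arrays of the same RNAs differed in sign about as often as they shared it, in the axis and over all features.

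The pair of spots of a gene gives a second measure of error on the same array. Most deposited values can be written, to their last digit, as the log2 of a ratio of small whole numbers. The larger of these numbers in lowest terms, called the recovered signal, is a lower bound on the brightness of the spot. It was found, with the smaller number under 5000, for 86.0% to 97.1% of the values of an array, against 0.6% of random values, and for 109 of the 118 values of the axis. A value with no such ratio was counted as bright. The median recovered signal was 446 over all values.

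IGFBP4 and IGFBP5 had the highest median recovered signals of the axis, 4760 and 1925. IGF2R had 506, IGF2 463, IGFBP2 332, IGFBP6 330, IGFBP7 254 and IGFBP3 253. These medians are bounds for each gene's own spots and say nothing of the levels of one gene against another. The spots of IGFBP4 differed by a median of 0.11 on the log2 scale over 8 arrays, and at most by 0.25. Those of IGFBP5 differed by 0.24, of IGF2 by 0.29, of IGFBP3 by 0.39, of IGFBP7 by 0.42, of IGFBP6 by 0.52, of IGFBP2 by 0.60 and of IGF2R by 0.99. Over all 3305 named pairs of spots the median difference was 0.27, and by brightness of the dimmer spot it was 0.36 at a recovered signal of 200 to under 400 and 0.11 in the brightest class.

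The spots of IGF2R differed by more than the median of all named pairs of like brightness on all 7 arrays. They had opposite signs on 5 of 7 arrays, among them the array of couple 3 with high energy in dye 3, where spot A was at -1.07 (371 over 780) and spot B at 0.81 (822 over 469). IGFBP6 and IGFBP7 also had arrays with larger gaps. On the array of couple 4 with high energy in dye 5, spot A of IGFBP6 was at 0.78 (713 over 416) and spot B at -1.51 (209 over 596). On the array of couple 3 with high energy in dye 5, spot A of IGFBP6 was at -1.40 (109 over 287) and spot B at 0.94 (25 over 13). On the same array, spot A of IGFBP7 was at 2.16 (143 over 32) and spot B at -1.51 (80 over 227), so that its array value of 0.32 is the mean of values 3.66 apart.

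The spots of the axis had opposite signs in 28 of 58 pairs measured (48.3%), and those of all named pairs in 43.9%. Across the named pairs of an array, Pearson's r between the spots was 0.043 to 0.24, a description over genes that share the array and its brightness. With values under a recovered signal of 200 left out, IGF2R had -0.37 and IGF2 0.14. Since the recovered signal is a lower bound, a value left out need not be dim. Spot A of IGF2, for example, had 19 over 14 on the dye 3 array of couple 2. IGFBP6 then had -0.26, IGFBP5 -0.015 and IGFBP4, which lost no value, 0.069. IGFBP2 then had too few couples for the test.

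**Figure D3:**
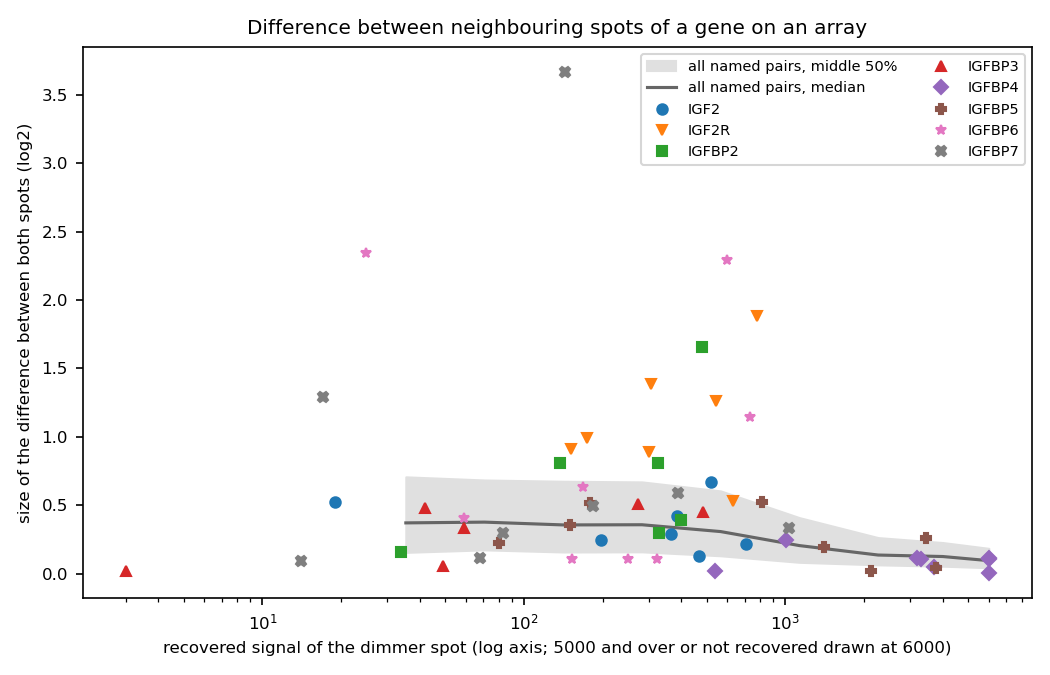
Size of the log2 difference between both spots of a gene on an array (vertical axis) against the recovered signal of the dimmer spot (horizontal log axis), for the 8 genes (symbols) and all named pairs (grey line, median; grey band, middle 50%). IGFBP4 has differences of at most 0.25, and IGF2R lies above the grey line on all 7 arrays, between 0.53 and 1.88.

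The genes that act with the axis gave no call. The lists held 159 genes, of which 41 had a spot and 39 were tested. 18 lay above 0 and 21 below, 0 passed in limma's test, and 0 had an unadjusted p under 0.05, where 3.78% of all features did. Of the turned values 1 of 39, that of SHC1, had an unadjusted p under 0.05, where 2.65% of all features did. The median log2 ratio of the lists was -0.0025 (turned -0.022). The list of proteins that free or hold the ligands had a spot for 1 of 17 genes, and that gene, the protease gene HTRA1, was not measured in enough couples.

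Upstream, the growth hormone list had 2 of 16 genes tested. PTPN11, a phosphatase of growth factor receptors, had a log2 ratio of 0.016 ± 0.090 (turned 0.14), and STAT5B, the factor through which growth hormone induces IGF1, -0.00079 ± 0.10 (turned 0.018). Of the receptor adaptors 4 of 19 were tested, 1 above 0 and 3 below, with a median of -0.075 (turned 0.15). GRB10, which restrains insulin and IGF receptors, had -0.14 ± 0.11 (turned 0.069), SHC1 -0.18 ± 0.15 in 3 couples (turned 0.27) and GRB2, which links receptors to RAS, 0.034 ± 0.12 (turned 0.24). For SHC1 and GRB2 the turned value was larger than the ratio.

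The PI3 kinase, AKT and mTOR branch was the best covered, with 15 of 41 genes tested, 10 above 0 and 5 below, and a median of 0.032 (turned -0.0034). GSK3A, the kinase of glycogen synthase that AKT inhibits, had 0.13 ± 0.096 (turned 0.051), MLST8, a subunit of mTOR complexes, -0.098 ± 0.090 (turned -0.034) and EIF4EBP2, a repressor of translation under mTOR, 0.064 ± 0.082 (turned -0.082). None of this branch passed. Of the RAS and MAP kinase branch, 6 of 22 genes were tested, 2 above 0 and 4 below, with a median of -0.033 (turned -0.036). The RAF kinase ARAF had 0.19 ± 0.088 (turned -0.050). It was above 0 in all 4 couples, and so were EIF4EBP2 and, described below, SQSTM1. GRB10, MAP2K2, DUSP1 and, described below, MAP1LC3B and CTSB were below 0 in all 4 couples. Of the 3640 features measured in 4 couples, 16.6% kept 1 sign. The genes named were those with the smallest p of their lists, a choice that favours 1 sign. MAP2K2 had -0.12 ± 0.094 (turned -0.066), and the phosphatase DUSP1, which switches MAP kinases off, -0.093 ± 0.085 (turned 0.14).

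Genes of muscle loss, which FOXO factors induce when AKT is quiet, had 7 of 20 tested, 2 above 0 and 5 below, with a median of -0.047 (turned -0.070). SQSTM1, an autophagy receptor, had the largest ratio of these lists, 0.31 ± 0.13 (turned -0.23). MAP1LC3B, a protein of the autophagosome membrane, had -0.11 ± 0.090 (turned -0.070), and FBXO32, the ubiquitin ligase atrogin, -0.12 ± 0.12 (turned -0.053). The lysosomal partners of IGF2R had 5 of 24 tested, 2 above 0 and 3 below, with a median of -0.044 (turned -0.00088). M6PR, the other mannose phosphate receptor, had -0.23 ± 0.18 (turned -0.13), and the lysosomal proteases CTSB and CTSD had -0.16 ± 0.14 (turned 0.15) and 0.083 ± 0.11 (turned 0.077). The spots of CTSB had array means from -0.70 to 0.40.

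**Figure D4:**
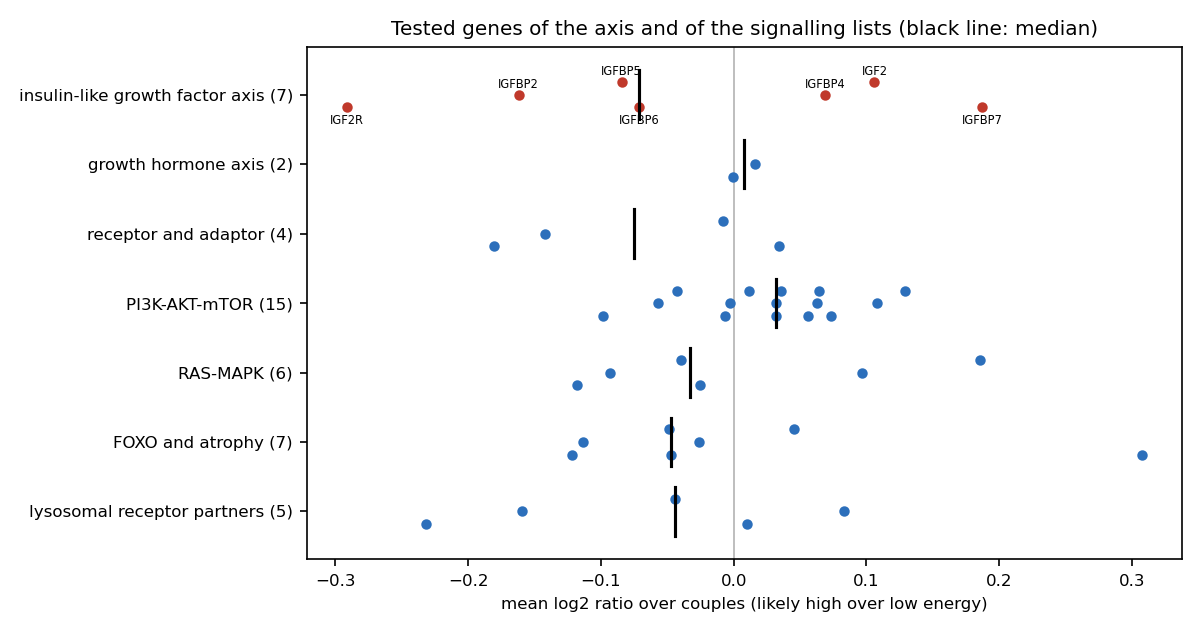
Mean log2 ratio over couples (horizontal axis, likely high over low energy) of the 7 tested genes of the axis (red, named) and of the tested genes of 6 lists (blue), with the number tested in brackets and a black line at each median. The axis runs from -0.29 for IGF2R to 0.19 for IGFBP7, and each list has genes on both sides of 0.

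For the 5 genes of the axis measured on all 8 arrays, the most similar patterns were looked for among 1923 other named genes on all 8 arrays, as Pearson's r over the 8 array values. They are a description, the highest of many, over arrays that share RNAs in couples. IGF2 was nearest to MPO (r = 0.97) and PAFAH1B3 (r = 0.93), and IGFBP4 to MAGT1 (r = 0.95) and ASB12 (r = 0.94). IGFBP5 was nearest to CD93 (r = 0.91) and SAP18 (r = 0.88), IGFBP6 to NDUFA2 (r = 0.95) and PNN (r = 0.94), and IGFBP7 to PSMA4 (r = 0.92) and TBC1D14 (r = 0.91). All 3 of IGFBP4, MAGT1 and ASB12 were highest on the same array, that of couple 4 with high energy in dye 5, which had 0.50 for IGFBP4, 1.04 for MAGT1 and 0.97 for ASB12. A gene can share the pattern and differ in mean, as PSMA4 did, with -0.34 against the plain mean of 0.21 for IGFBP7.

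Muscle RNA is a mixture, and in such samples fewer cells of a type and less RNA per cell cannot be told apart. All 9 listed muscle fibre markers had values on all 8 arrays, but so did the tested fat, immune and blood markers. Ratios carry no level with which to check the tissue. Fibre markers had a median log2 ratio of -0.087, with 3 above 0 and 6 below, and a turned median of 0.016. MB (-0.32, turned 0.22) and TNNT1 (-0.21, turned -0.047) had an unadjusted p under 0.05 for the ratio and not for the turned value. These are 2 of 9, where 3.78% of all features had such a p for the ratio. The 3 above 0 were TNNT3 at 0.088, CKM at 0.083 and DES at 0.047. Beside IGFBP7, the 4 tested vessel markers of 9 listed, EMCN, CLDN5, TAGLN and MYL9, were all above 0, with a median of 0.19 (turned -0.13) and couple medians of 0.14, 0.072, -0.079 and 0.38. CLDN5 and MYL9 were below 0 in couples 2 and 3 and at 0.71 and 0.755 in couple 4. EMCN and TAGLN were above 0 in every couple measured. Of all tested features 46.4% had a mean above 0. The part of the vessel markers in the ratio of IGFBP7 was not tested. The matrix markers had 3 of 5 above 0 (median 0.0013, turned -0.071) and the fat markers 0 of 2 (median -0.072, turned 0.16), so both medians change sign when turned. The immune markers had 0 of 2 above 0 (median -0.19, turned -0.066) and the blood markers 2 of 3 (median 0.022, turned 0.094). No marker passed in limma's test.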

How the data were processed

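The file analysed holds the authors' deposited log2 ratios, 1 column per array. RNA extraction by a modified Chomczynski method, labelling with Cy3 and Cy5 and a ScanArray LITE scanner are named in the series' design text; the sources used here give no background correction, spot filter, normalization, ratio direction or log base. Base 2 was read from the values, most of which are log2 of ratios of small whole numbers. Array medians were -0.0071 to 0.012 before centring, so the values were deposited close to centred.

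Each array was centred on its median. The platform annotation, whose accessions are human, gives 1 symbol for 6610 spots, several for 106 and none for 3268. All 8 symbols of the axis are in the pig RefSeq table of Sscrofa11.1, from which no coordinates were used, as the files name no build. The spots of a gene were averaged, giving 6296 features, and the swapped arrays of a couple were averaged. The 5025 features measured in both orientations in at least 3 couples were fitted with limma 3.58.1 in R 4.3.3 (lmFit, eBayes, mean against 0, two-sided), blocked on the shared high energy sample (correlation fixed at 0.5) and Benjamini-Hochberg adjustment over all features. The limma mean weights the couples that share a sample less, so it can differ from the plain mean. The fit was tested on simulated data drawn with that same correlation, with changes larger than any mean ratio of the axis. This bears neither on the choice of correlation nor on changes of the sizes seen here. The number of arrays and couples limits the precision, and the files hold no counts from which to state a depth.

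Members, lists and tests were chosen with earlier results of these data known. All members were named, up to 3 genes with the smallest p of each signalling list, and the 2 genes most like each member measured on all arrays. Alternatives covered centring, scaling, the block, dye orientation, missing values, spots, dim values, moderation and each couple left out.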

Additional observations from a re-analysis of the deposited data

Results flagged for a closer look

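Among the 17 sets of 4 values examined for the axis (couple means, and the arrays of each dye orientation), 1 had a value far from the others, as chance alone gives in about 1 of 20. It was IGFBP4 on the array of couple 4 with high energy in dye 5, at 0.50, where the other 3 arrays of that orientation lay between 0.033 and 0.079. Both spots were high there, at 0.51 and 0.48, and the swapped array of the couple was at -0.16. The recovered signals on that array were 1979 and 536, under the gene's median of 4760. As lower bounds, they do not show that the spots were dimmer there.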

How the results depend on the processing

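No gene of the axis passed in any alternative run, and the smallest adjusted p over them was 0.8086 (IGF2R, dim values left out). The array had 0 calls as reported. The following values had the opposite sign to the reported ones. With the dye 3 arrays reversed, IGF2 had -0.028, IGF2R 0.050, IGFBP5 0.018 and IGFBP7 -0.041. With high energy in dye 3 only, IGFBP2 had 0.060, IGFBP4 -0.048 and IGFBP6 0.040. With couples left out in turn, IGF2 ranged from -0.016 to 0.24 and IGFBP6 from -0.13 to 0.029, both turning without couple 4. Spot A of IGFBP6 alone gave 0.077, and IGFBP7 without values under a recovered signal of 200 had -0.097. The cause was not tested. Not centring, scaling and dropping the moderation turned no sign of the 7 tested genes. The count of features with an unadjusted p under 0.05 was 190 of 5025 as reported. Over the same features it was 310 with independent couples. It was 353 with all 8 arrays and the couple as a replicate block (correlation -0.036). Other sets of features were tested in the runs that follow. The count was 108 of 5687 with high energy in dye 5 only, 108 of 5249 without couple 2 and 305 of 5466 without couple 3. In the fit of all 8 arrays, which had no block for the sample shared by couples 1 and 3, IGF2R had -0.20. IGFBP3, untested and at -0.047 as reported, had -0.17 with high energy in dye 5 only, 0.30 with it in dye 3 only and 0.11 with 1 orientation per couple enough, so its sign turned too. Requiring all 4 couples left IGF2R and IGFBP2 without a value, as leaving out dim values did for IGFBP2. The members' 95% intervals still hold changes of up to 1.59-fold down (IGF2R) and 1.44-fold up (IGF2).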
